A study of Mus musculus with 33 samples.

Results

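The nuclear genes of the respiratory chain were followed by complex and by isoform in aged mouse blood stem and progenitor cells. Of 55376 gene symbols in the count tables, 84 matched the names of Nduf, Sdh, Uqcr, Cox and Atp5 subunits, and 79 of these had a mean above 3 CPM, a unit of reads scaled to library size, over the 24 libraries of cohort 2. These 79 members were 35 subunits of complex I, 4 of complex II, 8 of complex III, 15 of complex IV and 17 of complex V. *Ndufa4* was counted with complex IV, since its protein is known there despite its name. *Cox7b2* (mean of 3.06 CPM) and *Cox6b2* (4.55 CPM) lay just inside the limit. The 5 matching symbols outside it were *Cox4i2* (2.20 CPM), *Cox7a1* (0.660 CPM), *Cox6c2* (0.629 CPM), *Cox8b* (0.529 CPM) and *Cox8c* (0.514 CPM). All 79 members passed the filter on low counts in the comparisons between cell types. *Cox6a2* and *Cox7b2* had a mean above 3 CPM in CLPs alone and so entered through CLPs. Their differences from CLPs are given as descriptions without p-values. The counts of members called and the adjustment over isoform shares still include both genes.

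The study asked how nicotinamide riboside (NR), a precursor of NAD+, changed blood formation in old C57BL/6 mice. The mice were males of 24 to 29 months, and no young mice were used here. Cohort 2 held hematopoietic stem cells (HSCs), common lymphoid progenitors (CLPs) and granulocyte-macrophage progenitors (GMPs), each from untreated old mice (O-WT, 4 libraries) and from old mice given NR in their drinking water for 4 to 6 weeks (O-NR, 4 libraries). Cohort 1 held HSCs from O-WT (2 libraries), O-NR (4 libraries) and O-NR-RC mice (3 libraries), the last being mice left without NR for 2 months after supplementation. One label field calls the GMP libraries common myeloid progenitor, whereas their titles read GMP. HSCs were sorted as Lin-cKit+Sca1+CD34-Flk2-CD150+ bone marrow cells. All libraries were bulk total RNA.

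Electrons from NADH enter the chain at complex I and those from succinate at complex II. Complexes III and IV pass them on to oxygen while protons are pumped across the inner mitochondrial membrane, and complex V, the ATP synthase, uses that gradient to make ATP. NAD+ is the electron acceptor whose reduced form feeds complex I, and HSCs are known to rely less on respiration than the progenitors they give rise to. Several subunits of complexes IV and V exist as isoforms from separate genes, some of them best known from muscle, heart or testis.

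Cohort 2 libraries held 4792380 to 18213674 assigned reads and cohort 1 libraries 8897256 to 23816042. Of the markers of each cell type, 10 of 10 for HSCs, 8 of 10 for CLPs and 10 of 10 for GMPs were highest in the cells so labelled. *Il2rg* and *Bcl11a* were the CLP markers that were highest in HSCs. Summed reads on 1971 olfactory and vomeronasal receptor genes, a family not known for a role in blood cells, ranged from 858 to 2376 CPM in GMPs, 1502 to 4671 CPM in HSCs and 2115 to 8303 CPM in CLPs. O-WT replicate 3 of the CLPs had the highest value and the fewest reads, and the values with and without it are given where a result turned on it. In cohort 1 the same sum ranged from 4445 to 15260 CPM, and 4 HSC libraries stood above 10000 CPM. Lists of plasma and B cell, neutrophil, erythroid, and T and NK cell genes did not stay level between the cell types either. The plasma and B cell list summed to 382 to 838 CPM in CLPs, 88.0 to 888 CPM in HSCs and 72.8 to 135 CPM in GMPs. *Ighm* alone averaged 500 CPM in CLPs, and of the 8 genes 4 were highest in CLPs and 4 in HSCs. The erythroid list reached 229 to 429 CPM in HSCs against at most 99.2 CPM in CLPs and 40.5 CPM in GMPs. The neutrophil list stood at 17.9 to 192 CPM in CLPs, 11.8 to 18.2 CPM in HSCs and at most 56.1 CPM in GMPs, with 7 of its 8 genes highest in CLPs. The T and NK list summed highest in GMPs (94.2 to 148 CPM) through *Nkg7*, which averaged 108 CPM there, while 5 of its 8 genes were highest in CLPs and 2 in HSCs. The part of these cells and reads in the results below was not tested.

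The 79 members together took up more of the library in GMPs than in HSCs or CLPs. Their summed level, scaled by the trimmed mean of M values (TMM), was 6580 CPM ± 542 (SD, n = 8) in GMPs, against 3090 ± 709 in HSCs and 3250 ± 824 in CLPs. HSC libraries ranged from 2024 to 3871 CPM, CLP libraries from 1777 to 4557 CPM and GMP libraries from 5646 to 7301 CPM. Every GMP library therefore lay above every HSC and CLP library, whereas HSCs and CLPs overlapped along most of their range. Scaled by library totals alone, the sums were 3140 ± 193, 3590 ± 416 and 5570 ± 211 CPM, and the GMP libraries again lay apart. These values are shares of each library, so the amount of RNA per cell was not measured. In bulk samples such as these, a different mix of sorted cells and a different level in each cell cannot be told apart.

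**Figure D1:**
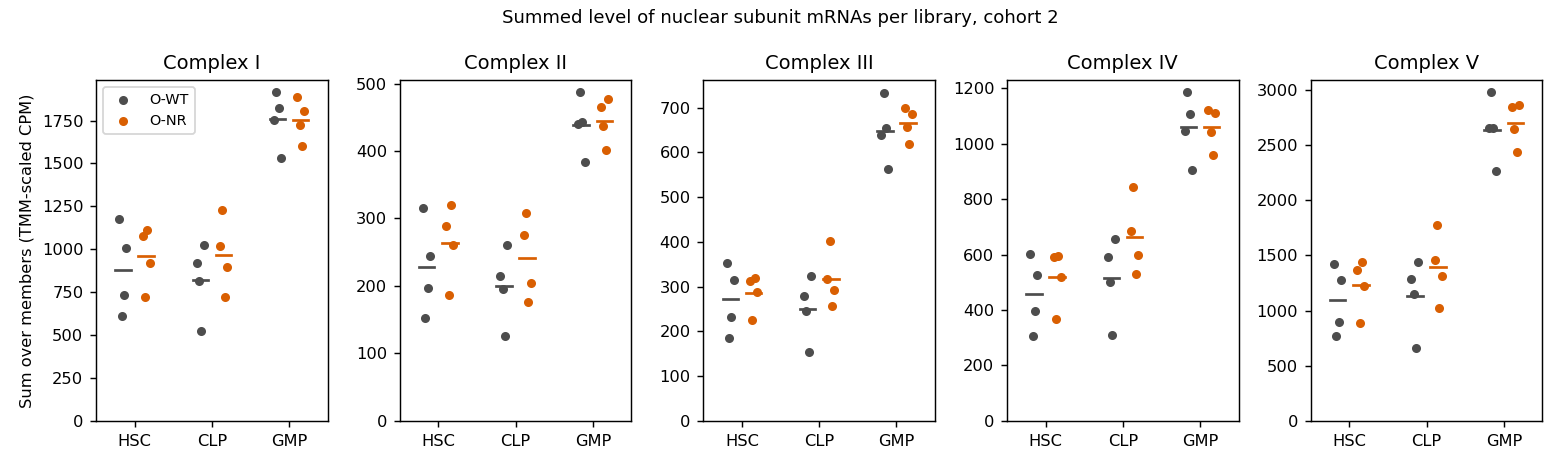
Summed TMM-scaled CPM of the members of each complex in every cohort 2 library, by cell type, with O-WT and O-NR libraries as separate points and the mean as a bar. For all members together the GMP libraries sit at 5646 to 7301 CPM, above all HSC (2024 to 3871 CPM) and CLP libraries (1777 to 4557 CPM).

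Each complex kept a similar share of the summed reads in the 3 cell types, with small shifts that separated HSC from GMP libraries in complexes I, II, III and V. Complex V took the most, with 40.5% ± 0.45 (SD, n = 8) in GMPs, 38.8% ± 0.79 in CLPs and 37.5% ± 0.61 in HSCs. Complex I took 26.7% ± 0.42 in GMPs, 27.6% ± 0.86 in CLPs and 29.8% ± 0.54 in HSCs. The HSC libraries (28.7 to 30.4% for complex I, 36.5 to 38% for complex V) did not overlap the GMP libraries (26 to 27.3% and 39.7 to 41.2%). Nor did they in complex II (7.24 to 8.45% in HSCs, 6.63 to 6.88% in GMPs) or complex III (8.44 to 9.5% and 9.76 to 10.3%). Complex IV took a larger share in CLPs (18.1% ± 0.71) than in HSCs (15.8% ± 0.40) or GMPs (16.1% ± 0.20). Its sum includes *Cox6a2* and *Cox7b2*, which entered the set through CLPs, and the share without them was not computed. *Cox6a2* alone averaged 33.1 CPM in CLPs, against 0.496 in HSCs and 0.502 in GMPs. The shares of the complexes do not depend on how libraries were scaled, and no test was run on them. Levels of different genes were compared per kilobase, with the length taken over all annotated exons of a gene. Where the transcripts present use only part of these exons, the value of that gene is too low. On this scale *Atp5a1* had the highest value of the members in each cell type, at 221 CPM per kb in GMPs, 89.8 in CLPs and 91.8 in HSCs. It encodes the alpha subunit of the ATP synthase head. The median member of complex IV stood at 26.4, 34.6 and 41.1 CPM per kb in HSCs, CLPs and GMPs, and that of complex I at 14.8, 14.0 and 31.4. *Atp5o*, whose symbol has several positions in the annotation, had no single length and is not in these per-kilobase values.

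The GMP against HSC comparison asked which subunits differ between a stem cell and a committed myeloid progenitor. By edgeR's quasi-likelihood test, 72 of 79 members were higher in GMPs and 1 was lower at Benjamini-Hochberg adjusted p below 0.05, where 21% of the 22573 genes tested were higher and 27.1% lower. The median log2 fold change was 1.05 over the members and -0.28 over all genes tested. The members that rose were 33 of 35 in complex I (median log2 fold change of all its members 0.96), 4 of 4 in complex II (1.08), 7 of 8 in complex III (1.38), 11 of 15 in complex IV (1.27) and 17 of 17 in complex V (1.12). Within complex I, the 7 catalytic core subunits all rose (median 0.93), and so did 26 of 28 accessory subunits (median 0.96). The 6 members that passed in neither direction were *Ndufa7*, *Ndufb2*, *Uqcrh*, *Cox6a2*, *Cox6b2* and *Cox7b2*. In 67 of 79 members every GMP library was above every HSC library, against 14.3% of all genes tested. No member had every HSC library above every GMP library, against 12.5% of all genes tested. The median over all genes moved with the scaling, from -0.28 with TMM to between -0.64 and -0.10 with other factors, whereas the members' median lay 1.34 to 1.42 above it across scalings, filters and tools.

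The members with the smallest p in each complex were as follows. *Uqcrq*, a small subunit of complex III, had a lowest, median and highest value of 15.5, 25.3 and 32.2 CPM in HSCs and 81.7, 99.7 and 122 CPM in GMPs. All 8 GMP libraries lay above all 8 HSC libraries, and the log2 fold change was 2.06 ± 0.16 (SE, edgeR adjusted p = 1.72e-17). *Cox5a*, a structural subunit of complex IV, had 56.1, 66.5 and 82.6 CPM in GMPs, 18.3, 40.1 and 50.9 CPM in CLPs and 10.7, 16.6 and 21.6 CPM in HSCs. Its log2 fold change was 2.06 ± 0.15 in GMPs against HSCs (edgeR adjusted p = 1.26e-17) and 1.24 ± 0.15 in CLPs against HSCs (edgeR adjusted p = 6.39e-10). GMP and HSC libraries did not overlap, and a single CLP library, O-WT replicate 3, fell within the HSC range.

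*Ndufs6*, a complex I subunit that binds zinc, had 6.32, 8.79 and 10.5 CPM in HSCs and 20.9, 28.3 and 31.3 CPM in GMPs, with no overlap and a log2 fold change of 1.67 ± 0.17 (SE, edgeR adjusted p = 7.48e-13). It had the smallest p of complex I. In complex II, *Sdhd*, which anchors succinate dehydrogenase in the membrane, had 16.2, 24.4 and 35.9 CPM in HSCs and 53.6, 71.1 and 76.7 CPM in GMPs. The libraries again did not overlap, and the log2 fold change was 1.44 ± 0.16 (edgeR adjusted p = 2.27e-11). *Atp5g1*, which encodes the c-ring subunit that turns as protons pass, rose by 1.59 ± 0.16 on the log2 scale (edgeR adjusted p = 2.84e-13). Its libraries spanned 10.5 to 23.2 CPM in HSCs and 41.7 to 56.1 CPM in GMPs.

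**Figure D2:**
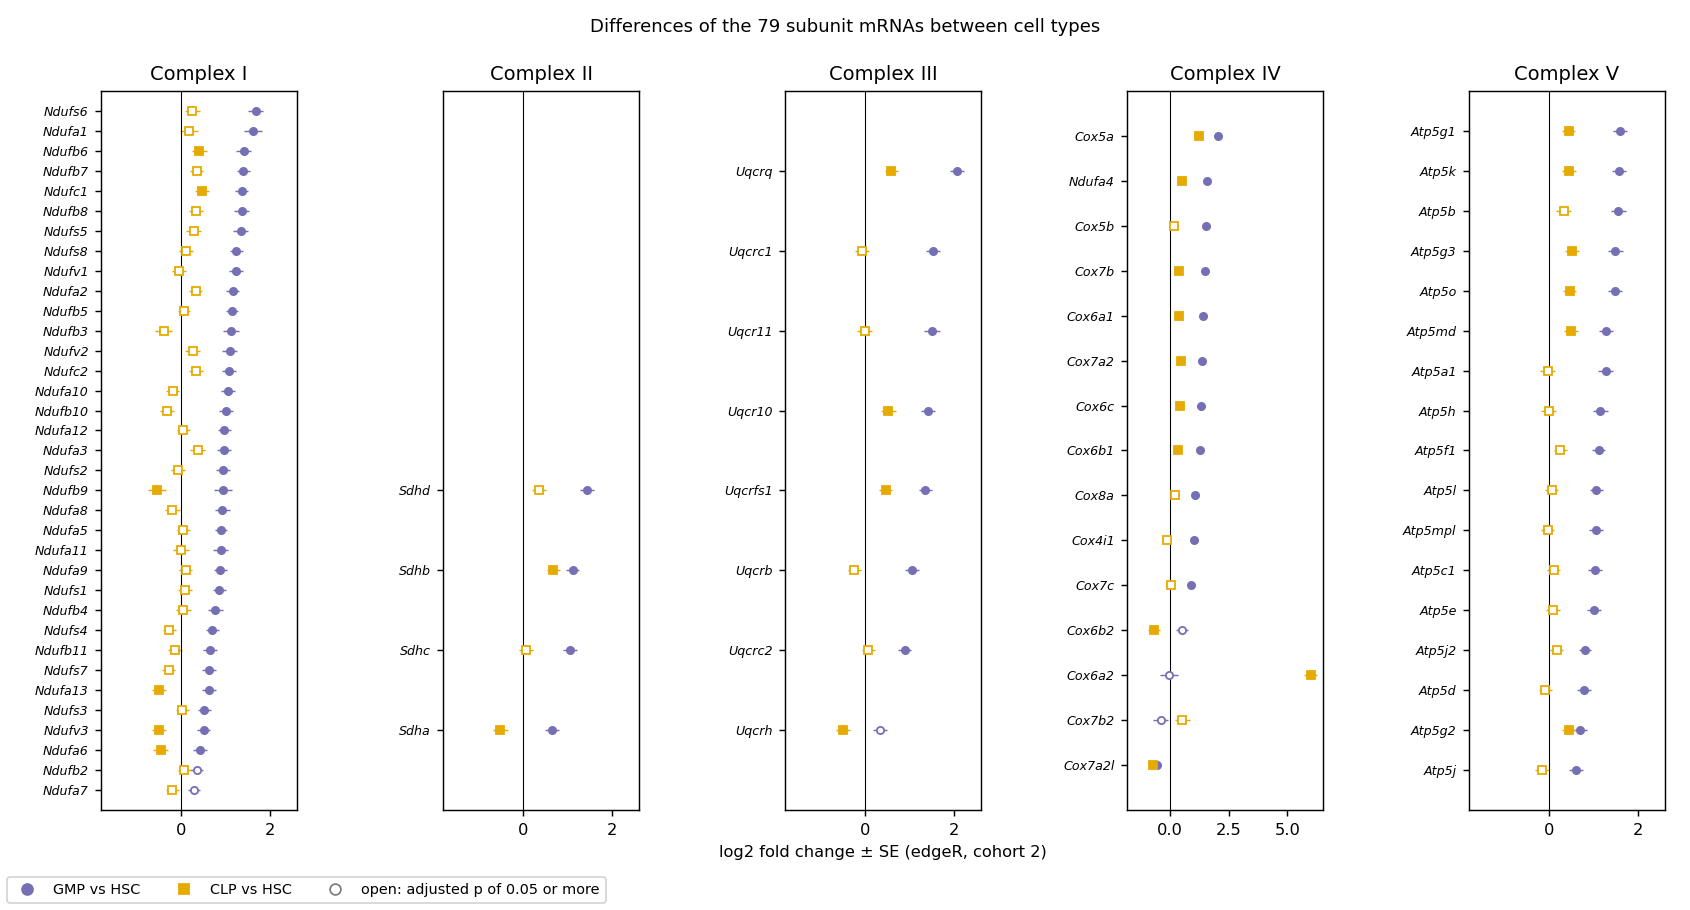
Log2 fold change ± SE of each of the 79 members by complex, for GMPs against HSCs and for CLPs against HSCs. Open points have an edgeR adjusted p of 0.05 or more, and the axis of complex IV is wider because *Cox6a2* reaches 5.99 in CLPs against HSCs.

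The GMP against CLP comparison set the myeloid against the lymphoid progenitor. Here 74 of 79 members were higher in GMPs and 2 were lower, where 26.8% of all genes tested were higher and 43.1% lower. The members' median log2 fold change was 0.97, against -0.41 for all genes tested. With other scalings the members' median fell to 0.47 at the lowest, with TMM over coding genes, and its distance above the median of all genes was 1.39 with TMM and 1.42 there. Complexes II (4 of 4) and III (8 of 8) rose throughout, as did 34 of 35 members of complex I, 16 of 17 of complex V and 12 of 15 of complex IV. The smallest p in complex III belonged to *Uqcrc1*, a core protein of the complex, which spanned 33.4 to 76.1 CPM in CLPs and 136 to 181 CPM in GMPs (log2 fold change 1.59 ± 0.15, edgeR adjusted p = 4.74e-13). *Cox5b*, like *Cox5a* a structural subunit of complex IV, spanned 28.5 to 79.7 CPM in CLPs and 109 to 144 CPM in GMPs (1.37 ± 0.16, edgeR adjusted p = 1.97e-10). *Sdha*, the flavoprotein that oxidises succinate, spanned 70.4 to 164 CPM in CLPs and 228 to 298 CPM in GMPs (1.16 ± 0.17, edgeR adjusted p = 5.05e-08). In each of these genes all GMP libraries were above all CLP libraries, and the share of all genes tested that did so was not computed. The 2 lower ones were *Cox6a2* and *Cox7b2*, tissue-restricted isoforms of complex IV that entered the set through their CLP level.

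CLPs and HSCs differed little over the whole set, and the subunits that differed went in both directions. At adjusted p below 0.05, 20 members were higher in CLPs and 8 lower, where 20.2% of all genes tested were higher and 23.9% lower. One of the 20 was *Cox6a2*, which entered the set through CLPs. The median log2 fold change was 0.09 over the members and 0.13 over all genes. These counts moved with the scaling, to 47 higher and 4 lower with upper quartile factors, 39 and 6 with library totals and 44 and 6 with TMM over coding genes. The share of all genes moved as well, to 32.1% higher and 18.5% lower, 22.5% and 21.7%, and 27.2% and 19.6%. The members called higher were 25.3% with TMM and 59.5%, 49.4% and 55.7% with these scalings. The members' median minus that of all genes was -0.04 with TMM, -0.02 with upper quartile factors, and -0.04 with both library totals and TMM over coding genes. Leaving out O-WT replicate 3 of the CLPs gave 29 higher and 7 lower. The 1 member with all CLP libraries above all HSC libraries, against 4.56% of all genes tested, was *Cox6a2*.

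By complex, the counts higher and lower in CLPs were 2 and 4 in complex I, 1 and 1 in complex II, 3 and 1 in complex III, 8 and 2 in complex IV and 6 and 0 in complex V. None of the 7 core subunits of complex I passed the test. In complex II the catalytic pair went opposite ways. *Sdhb*, the iron-sulfur subunit, had a lowest, median and highest value of 19.9, 27.8 and 36.7 CPM in HSCs and 24.1, 41.8 and 62.8 CPM in CLPs (log2 fold change 0.68 ± 0.15, edgeR adjusted p = 0.000248). *Sdha* had 103, 170 and 219 CPM in HSCs and 70.4, 112 and 164 CPM in CLPs (-0.51 ± 0.17, edgeR adjusted p = 0.00935). The cell types overlapped for both genes. All c-ring genes of complex V were higher in CLPs, with log2 fold changes of 0.44 for *Atp5g1*, 0.45 for *Atp5g2* and 0.51 for *Atp5g3* (edgeR adjusted p = 0.0194, 0.0216 and 0.00865). None of these 3 calls held with a limit of 1 CPM (adjusted p = 0.255, 0.237 and 0.132) or in O-WT libraries alone (0.146, 0.423 and 0.0544). Leaving out O-WT or O-NR replicate 2 of the HSCs, or O-WT replicate 1 or O-NR replicate 2 of the CLPs, also ended the calls of *Atp5g1* and *Atp5g2*. That of *Atp5g1* was lost without O-WT replicate 3 of the HSCs, and that of *Atp5g2* without replicate 4 of either CLP group. None of the 5 subunits of the F1 head passed. *Ndufc1* and *Uqcrq* had the smallest p among the higher members of complexes I and III (0.47 ± 0.15 and 0.59 ± 0.15, edgeR adjusted p = 0.00923 and 0.00124), and *Ndufv3* and *Uqcrh* among the lower ones (-0.51 ± 0.16 each, edgeR adjusted p = 0.00645 and 0.0083). With a limit of 1 CPM the adjusted p of *Ndufc1* was 0.194 and that of *Uqcrq* 0.0569, and in O-WT libraries alone these were 0.185 and 0.051, with *Sdha* at 0.0572. *Ndufc1* also lost its call without O-WT replicate 1 or 4 or O-NR replicate 1 of the CLPs, and the calls of *Ndufv3* and *Uqcrh* were lost in O-NR libraries alone. *Ndufb9*, *Ndufa13*, *Ndufa6* and *Cox6b2* were also lower in CLPs, by 0.47 to 0.67 on the log2 scale. The call of *Cox6b2* was lost in 7 of 24 fits that left out 1 library and in 6 of 12 other settings. Reads of *Ndufb9* can be shared with *Gm49356*, which overlaps it on the same strand.

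*Cox6a2* was read mainly in CLPs, the cell type through which it entered the set. This gene, on chromosome 7 (chr7:128205435-128206387, GRCm38), encodes the isoform of complex IV subunit 6a best known from heart and skeletal muscle, and *Cox6a1* encodes its widely expressed counterpart. The CLP libraries held 39.6, 22.6, 17.9 and 35.6 CPM in O-WT and 52.5, 41.5, 34.8 and 20.4 CPM in O-NR mice, from 144 to 496 reads each. HSC libraries held 0.0932 to 0.873 CPM and GMP libraries 0.164 to 0.808 CPM. No HSC or GMP library reached 1 CPM, and no CLP library was below 17.9 CPM. The log2 fold change was 5.99 ± 0.28 in CLPs against HSCs and -6.01 ± 0.28 in GMPs against CLPs (SE). Between GMPs and HSCs it was -0.02 ± 0.38 (edgeR adjusted p = 0.961).

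Per kilobase, *Cox6a2* made up 57.5% ± 4.63 (SD, n = 8) of the summed *Cox6a1* and *Cox6a2* level in CLPs, with libraries from 51.6 to 65.5%. Its share was 3.11% ± 2.56 in HSCs and 1.07% ± 0.648 in GMPs. The CLP libraries did not overlap the others. *Cox6a1* itself spanned 14.6 to 32.7 CPM over the CLP libraries and did not fall there, with a log2 fold change of 0.39 ± 0.15 against HSCs (edgeR adjusted p = 0.0321). The call of *Cox6a1* was lost in 16 of 24 fits that left out 1 library. In the HSC libraries of cohort 1 the *Cox6a2* share was 10.5 to 27.9%, the 4 libraries above 10000 olfactory CPM having 24.1 to 27.9% and the others 10.5 to 17.3%.

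Genes of plasmacytoid dendritic cells were followed beside *Cox6a2*, from 10 genes picked after its values were seen. Their summed level was 379 to 747 CPM in CLPs, 182 to 308 CPM in HSCs and 276 to 588 CPM in GMPs, and 7 of 10 were highest in CLPs. Most of the sum came from *Tcf4*, *Runx2* and *Irf8*. These averaged 187, 131 and 172 CPM in CLPs, 132, 74.2 and 6.43 in HSCs and 71.2, 72.4 and 197 in GMPs. *Irf8* is also among the 10 GMP markers. *Siglech*, a surface marker of plasmacytoid dendritic cells, averaged 21.1 CPM in CLPs, 1.71 in HSCs and 1.30 in GMPs, and *Klk1* averaged 0.677, 0.690 and 0.544 CPM. The part of such cells in the *Cox6a2* result was not tested. The exons of *Cox6a2* share 70 bases with *Itgad* on the opposite strand, and *Itgad* averaged 10.1 CPM in CLPs, 6.10 in HSCs and 5.14 in GMPs.

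The *Cox7a* family shifted between HSCs and both progenitors. *Cox7a2l*, on chromosome 17 (chr17:83501918-83517330, GRCm38), encodes a factor of respiratory supercomplexes that links complexes III and IV and is known to be shortened in C57BL/6 mice, and *Cox7a2* encodes the widely expressed subunit 7a of complex IV itself. Promoters of both genes are shown here because their messages moved in opposite directions. The sequences are the 250 bases before the RefSeq start in GRCm38.p6, read on the minus strand 5′ to 3′, at chr9:79759854-79760103 for *Cox7a2* and chr17:83514334-83514583 for *Cox7a2l*. That of *Cox7a2l* lies inside the longer gene of the Gencode annotation. No base is in capitals, since neither holds a motif searched for.
Cox7a2: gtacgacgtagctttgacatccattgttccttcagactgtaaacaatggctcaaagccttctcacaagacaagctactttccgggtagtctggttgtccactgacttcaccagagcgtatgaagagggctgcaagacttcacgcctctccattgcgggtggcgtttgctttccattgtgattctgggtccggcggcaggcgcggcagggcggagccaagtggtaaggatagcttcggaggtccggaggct
Cox7a2l: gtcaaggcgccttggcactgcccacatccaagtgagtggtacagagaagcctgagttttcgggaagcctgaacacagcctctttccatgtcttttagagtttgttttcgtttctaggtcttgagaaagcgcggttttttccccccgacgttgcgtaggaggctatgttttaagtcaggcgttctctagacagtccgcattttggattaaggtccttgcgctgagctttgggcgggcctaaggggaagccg

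*Cox7a2l* had a lowest, median and highest value of 52.6, 61.4 and 67.6 CPM in GMPs, 30.0, 53.4 and 82.6 CPM in CLPs and 57.2, 93.7 and 116 CPM in HSCs. *Cox7a2* had 27.9, 32.1 and 36.7 CPM in GMPs, 9.47, 17.8 and 25.3 CPM in CLPs and 8.37, 12.7 and 15.9 CPM in HSCs. In *Cox7a2l*, 6 of 8 HSC libraries stood above all GMP libraries, while every GMP library held more *Cox7a2* than any HSC library. *Cox7a2l* was lower in CLPs (log2 fold change -0.72 ± 0.16, edgeR adjusted p = 0.000253) and in GMPs (-0.54 ± 0.16, edgeR adjusted p = 0.00474), and was the one member called lower in GMPs than HSCs. That call was lost with DESeq2 size factors (-0.34, adjusted p = 0.112), without the CPM filter (-0.37, adjusted p = 0.13) and in O-WT libraries alone (-0.42, adjusted p = 0.061). Between GMPs and CLPs it was 0.18 ± 0.16 (edgeR adjusted p = 0.31), and -0.30 (adjusted p = 0.00211) with TMM over coding genes. *Cox7a2* was higher in GMPs than HSCs by 1.37 ± 0.15 and higher in CLPs by 0.47 ± 0.15 (edgeR adjusted p = 1.14e-11 and 0.00918). Its call in CLPs was lost without the CPM filter, with a limit of 1 CPM (edgeR adjusted p = 0.173) and in O-WT libraries alone (0.252).

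The share of *Cox7a2l* among the family's per-kilobase level does not depend on the scaling. It was 80.5% ± 2.04 (SD, n = 8) in HSCs, with libraries from 76.6 to 83.4%, 63.5% ± 7.95 in CLPs (48.8 to 70.7%) and 54.2% ± 2.98 in GMPs (48.8 to 58.5%). The HSC libraries of cohort 2 stood above all CLP and GMP libraries. The share was lower both in CLPs and in GMPs (exact permutation tests over libraries, two-sided, p = 0.000155 each, the smallest this design allows, and adjusted p = 0.000414 over 24 tests of isoform shares). It was lower in 8 of 8 pairs of libraries with the same identifier in the deposited data (exact permutation tests within pairs, adjusted p = 0.0144 each). These were taken as pairs from 1 mouse although the labels do not say so. The difference between GMPs and CLPs was -9.35 percentage points, with 7 of 8 pairs on that side (exact permutation test over libraries, adjusted p = 0.0161, and 0.0551 when compared within pairs). *Cox7a1*, the isoform best known from heart and muscle, made up 3.24% of the family in CLPs, 1.42% in HSCs and 1.04% in GMPs. In the HSC libraries of cohort 1 the *Cox7a2l* share was 58.3 to 76.4%, below that of every cohort 2 HSC library. The 4 libraries above 10000 olfactory CPM had 58.3 to 64.9% and the others 72 to 76.4%. The part of such reads in the share was not tested.

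**Figure D3:**
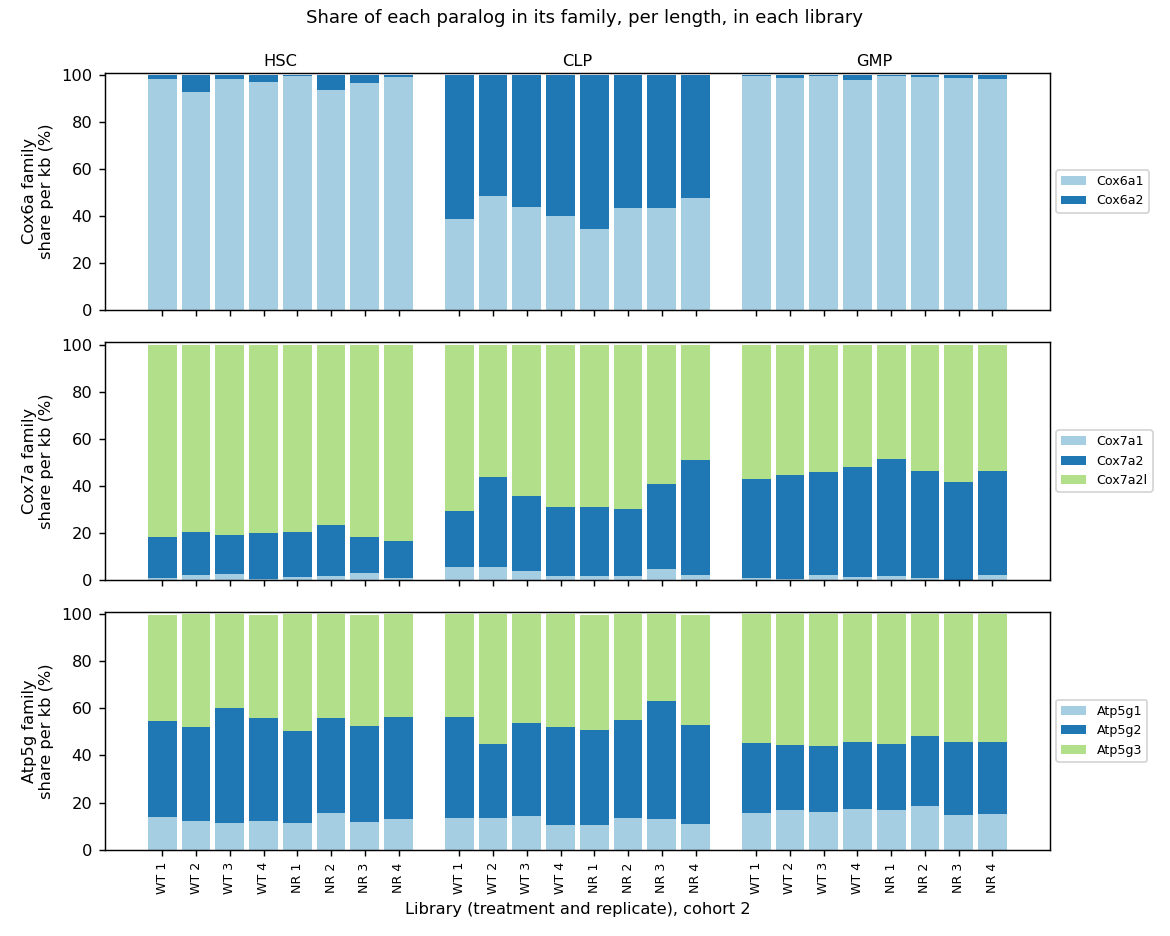
Share of each isoform in the summed CPM per kilobase of its family (*Cox6a*, *Cox7a* and *Atp5g*) in every cohort 2 library, as stacked bars in percent. *Cox6a2* makes up 51.6 to 65.5% of its family in CLPs, and *Cox7a2l* makes up 76.6 to 83.4% of its family in HSCs and 48.8 to 58.5% in GMPs.

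The 3 *Atp5g* genes encode the same mature c-ring protein with different import peptides. Their promoters are shown because genes for one protein differed in how far they rose. Each is the 250 bases before the RefSeq start in GRCm38.p6 on the minus strand, 5′ to 3′, at chr11:96075632-96075881, chr15:102671048-102671297 and chr2:73911327-73911576. Capitals mark 2 overlapping matches, 1 on each strand, to gcgcatg, the core of the motif of NRF1, a factor known to bind promoters of respiratory genes.
Atp5g1: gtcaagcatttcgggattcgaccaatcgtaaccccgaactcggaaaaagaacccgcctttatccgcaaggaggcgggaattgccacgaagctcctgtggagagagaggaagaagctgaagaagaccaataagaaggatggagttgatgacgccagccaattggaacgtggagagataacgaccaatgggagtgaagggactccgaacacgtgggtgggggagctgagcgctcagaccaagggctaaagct
Atp5g2: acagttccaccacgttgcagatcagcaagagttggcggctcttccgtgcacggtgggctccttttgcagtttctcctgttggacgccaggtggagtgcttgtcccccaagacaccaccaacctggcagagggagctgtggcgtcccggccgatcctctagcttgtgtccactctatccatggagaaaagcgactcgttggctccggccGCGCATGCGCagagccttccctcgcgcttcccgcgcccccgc
Atp5g3: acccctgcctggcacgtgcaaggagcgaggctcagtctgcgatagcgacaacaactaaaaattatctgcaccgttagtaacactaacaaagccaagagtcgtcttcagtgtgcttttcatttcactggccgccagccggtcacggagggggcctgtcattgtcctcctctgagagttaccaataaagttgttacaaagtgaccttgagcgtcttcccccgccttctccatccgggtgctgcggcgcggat

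From HSCs to GMPs, *Atp5g1* and *Atp5g3* rose by 1.59 ± 0.16 and 1.49 ± 0.16 on the log2 scale and *Atp5g2* by 0.70 ± 0.16 (edgeR adjusted p = 2.84e-13, 1.43e-11 and 0.000217). *Atp5g2* had 11.6, 19.4 and 23.2 CPM in HSCs and 23.6, 31.4 and 33.9 CPM in GMPs as its lowest, median and highest values. *Atp5g3* had 18.2, 28.1 and 34.4 CPM in HSCs and 58.3, 77.3 and 83.0 CPM in GMPs. Neither gene overlapped between the cell types. The shares in the family rest on exon lengths of 4912 bases for *Atp5g1*, 1675 for *Atp5g2* and 2181 for *Atp5g3*. The share of *Atp5g2* in the per-kilobase level of the family was 29.3% ± 1.29 (SD, n = 8) in GMPs, 41.3% ± 5.06 in CLPs and 42.1% ± 3.14 in HSCs. It was lower in GMPs than in HSCs in 8 of 8 pairs (exact permutation tests, adjusted p = 0.000414 over libraries and 0.0144 within pairs). The shares of *Atp5g1* (12.6 and 16.3%) and *Atp5g3* (45.3 and 54.4%) were higher in GMPs in 8 of 8 pairs. Exact permutation tests gave adjusted p = 0.00112 and 0.000414 over libraries, and 0.0144 for each within pairs. Between CLPs and HSCs the 3 shares differed by -0.87 to 1.06 percentage points, less than the spread between libraries.

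Rare isoforms of complex IV mostly took a smaller share in GMPs. *Cox7b2*, known from testis, made up 3.82% ± 1.49 of the *Cox7b* family in GMPs, 15.2% ± 11.2 in CLPs and 13.5% ± 6.79 in HSCs (SD, n = 8). The share of *Cox7b2* was lower in GMPs than in HSCs in 8 of 8 pairs (exact permutation tests, adjusted p = 0.00136 over libraries and 0.0144 within pairs). Its own level was 2.04 to 8.97 CPM in CLPs and 1.11 to 4.15 CPM in HSCs, against 1.44 to 3.50 CPM in GMPs, and these ranges overlapped. *Cox6b2*, also known from testis, made up 6.18% ± 3.10 of its family in CLPs, 7.28% ± 1.40 in GMPs and 11.7% ± 3.32 in HSCs. Both shares differed from that in HSCs (exact permutation tests, adjusted p = 0.00821 and 0.00506). Its own level averaged 6.62 CPM in GMPs, 4.75 in HSCs and 2.96 in CLPs, and the log2 fold change in GMPs against HSCs was 0.51 ± 0.25 (edgeR adjusted p = 0.0847). *Cox4i2*, the isoform known from lung, made up 6.91% of its family in HSCs and 2.75% in GMPs (exact permutation test, adjusted p = 0.00402), with a level of 2.39 CPM in HSCs and 2.01 in GMPs (log2 fold change -0.22 ± 0.30, edgeR adjusted p = 0.545). The common forms *Cox4i1*, *Cox6b1*, *Cox6c*, *Cox7b*, *Cox8a* and *Ndufa4* were higher in GMPs than HSCs by 1.05 to 1.60 on the log2 scale. *Cox6c2*, *Cox8b* and *Cox8c* averaged below 1 CPM in each cell type. Among cohort 1 HSCs, the 4 libraries above 10000 olfactory CPM had a *Cox7b2* share of 37.6 to 49.1%, against 10.8 to 21.1% in the others. The *Cox4i2* share was 22.7 to 27.9% against 10.1 to 14.3%, and that of *Cox6b2* 14.8 to 18.5% against 12.7 to 14%. The part of such reads in the cohort 2 shares was not tested.

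Of the 79 members, 65 had a promoter in the RefSeq table, with 70 entries. On either strand, gcgcatg was found in 10 of 70 (14.3%) against 3.24% of all 32851 promoters. The ETS family core ccggaag was found in 12 (17.1%) against 6.91%, and atggcgg, the core of the YY1 motif, in 5 (7.14%) against 2.21%. These are matches of letters only, in the 250 bases before the start. *Cox6a2* and *Uqcrq* were among the 14 members with no entry.

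Genes around the chain were followed as lists. *Atpif1*, the inhibitor of the ATP synthase, averaged 374 CPM in GMPs, 154 in HSCs and 99 in CLPs, with log2 fold changes of 1.28 ± 0.16 in GMPs and -0.65 ± 0.16 in CLPs against HSCs (edgeR adjusted p = 1.34e-09 and 0.000835). *Dmac2l*, formerly *Atp5s*, averaged 7.95 CPM in GMPs, 5.89 in CLPs and 8.47 in HSCs. It was lower in CLPs than in HSCs (log2 fold change -0.51, edgeR adjusted p = 0.0246) and higher in GMPs than in CLPs (0.43, edgeR adjusted p = 0.0399). *Cycs*, which encodes the cytochrome c that carries electrons from complex III to complex IV, stood at 108 CPM in GMPs, 41.6 in CLPs and 20.0 in HSCs (log2 fold changes against HSCs of 2.43 and 1.05). *Ndufb1-ps*, left out of the members by the -ps in its symbol, averaged 35.8 CPM in GMPs, 22.1 in CLPs and 11.9 in HSCs. The other 8 subunit symbols with -ps averaged below 3 CPM in each cell type. Of 51 assembly factors tested, which build the complexes without staying in them, 27 were higher in GMPs than HSCs and 2 lower, against 21% and 27.1% of all genes tested (median log2 fold change 0.41). The smallest p values belonged to *Cox10*, which makes heme for complex IV (1.10 ± 0.14), *Uqcc2* (1.37 ± 0.18) and *Ecsit* (1.07 ± 0.14). Between CLPs and HSCs 3 assembly factors were higher and 13 lower, against 20.2% and 23.9% of all genes tested, so the count lower is near the background (median -0.17). The smallest p values were those of *Cmc2* (1.05 ± 0.18), *Ttc19* (-0.85 ± 0.15) and *Cox14* (-0.81 ± 0.16). Between GMPs and CLPs 34 were higher and 1 lower, against 26.8% and 43.1% (median 0.60).

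The mitochondrially encoded subunits did not follow the nuclear ones as a list. Of 13 genes, 8 could be tested, and 2 were higher in GMPs than HSCs, *mt-Nd1* (log2 fold change 0.91) and *mt-Nd2* (0.51), while *mt-Nd6* was lower (-1.18). Of all genes tested 21% were higher and 27.1% lower, so the count higher is near the background. In CLPs against HSCs 3 were higher, *mt-Nd1* (0.91), *mt-Nd2* (0.86) and *mt-Nd3* (0.65), and *mt-Nd6* was lower (-0.96), against 20.2% and 23.9% of all genes tested. In GMPs against CLPs none was higher and 1 was lower, against 26.8% and 43.1%. Their summed level was 10090 CPM ± 828 in GMPs, 10310 ± 3048 in CLPs and 8490 ± 2061 in HSCs (SD, n = 8), and the 3 ranges overlapped. The 5 untested genes, *mt-Co2*, *mt-Co3*, *mt-Atp6*, *mt-Atp8* and *mt-Nd4l*, stayed below 1 CPM, and how the counting treated reads with several matches was not stated. Among 77 nuclear genes of mitochondrial ribosomal proteins, 71 were higher in GMPs than HSCs and 1 lower, against 21% and 27.1% of all genes tested, with a median log2 fold change of 0.87. For CLPs against HSCs the list had 7 higher and 8 lower, against 20.2% and 23.9%.

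The NR comparisons asked whether the supplement changed the subunits in each cell type. At unadjusted p below 0.01, 0 of 77 members tested differed in HSCs (0.777% of all genes tested), 0 of 79 in CLPs (0.412%) and 0 of 77 in GMPs (0.986%) by edgeR's test. At unadjusted p below 0.05 the counts were 2, 7 and 2, and none passed at adjusted p below 0.05. The median log2 fold change was 0.22 in CLPs, 0.08 in HSCs and 0.01 in GMPs, against medians between -0.01 and 0.00 for all genes tested. In CLPs 72 of 79 members were positive, in HSCs 54 of 77 and in GMPs 42 of 77. Scaled by library totals these were 57, 46 and 49, and in 1 fit over the 24 libraries 72 of 79 were positive in HSCs. Single libraries moved the medians. The CLP median was 0.10 without O-WT replicate 3 and 0.34 without O-WT replicate 4, and the HSC median 0.02 without O-WT replicate 2 and 0.14 without O-WT replicate 1. The GMP median ran from -0.03 to 0.04, without O-WT replicates 4 and 2. Summed over the members, CLPs held 1777 to 3706 CPM in O-WT and 2712 to 4557 CPM in O-NR mice, which overlapped. HSCs held 2024 to 3871 and 2395 to 3790 CPM, and GMPs 5646 to 7301 and 6014 to 7017 CPM.

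The members with the smallest p were *Ndufa12* (log2 fold change 0.33 ± 0.14) and *Cox5a* (0.36 ± 0.16) in HSCs. In CLPs they were *Ndufs4* (0.47 ± 0.19), *Ndufc2* (0.48 ± 0.21) and *Ndufc1* (0.51 ± 0.23), all subunits of complex I. In GMPs they were *Ndufb10* (-0.21 ± 0.09) and *Ndufb2* (-0.28 ± 0.12). None reached unadjusted p below 0.01. *Cox6a2*, tested in CLPs alone, had a log2 fold change of 0.30 ± 0.22 after NR (edgeR adjusted p = 1).

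The difference in the NR response between cell types was tested directly. Between CLPs and HSCs 1 of 79 members passed at unadjusted p below 0.01 (0.403% of all genes tested), between GMPs and HSCs 0 (0.146%) and between GMPs and CLPs 0 (0.403%). No member passed at adjusted p below 0.05 in these tests. The 1 member was *Ndufb6*, an accessory subunit in the membrane arm of complex I. In HSCs it stood at 10.2, 5.13, 6.35 and 7.65 CPM in O-WT and 6.52, 5.59, 5.63 and 6.03 CPM in O-NR mice. In CLPs it stood at 8.63, 7.98, 3.86 and 7.23 CPM in O-WT and 11.4, 10.9, 7.45 and 14.2 CPM in O-NR mice. The groups overlapped in both cell types. The NR response in CLPs minus that in HSCs was 0.97 ± 0.34 on the log2 scale (SE, edgeR adjusted p = 1). It no longer passed the unadjusted threshold when any 1 of 6 libraries was left out.

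**Figure D4:**
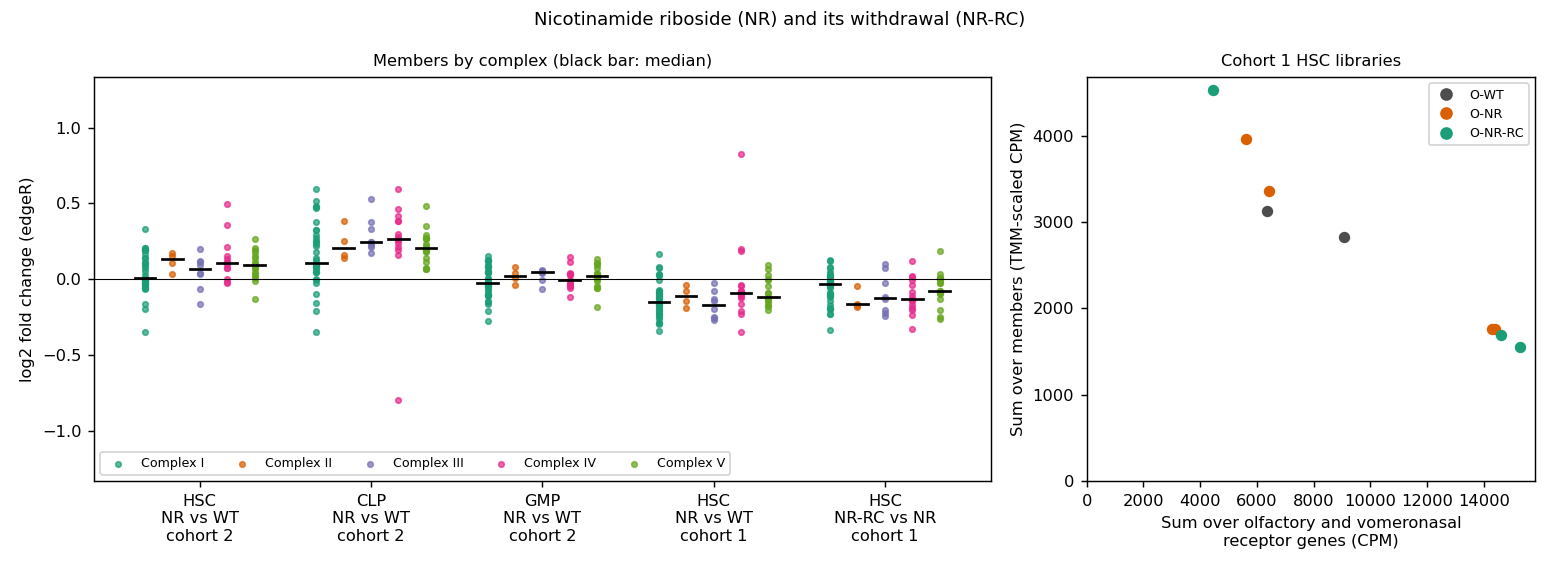
Left, log2 fold change of each member in the NR and withdrawal comparisons, by complex, with the median of each complex. Right, summed TMM-scaled CPM of the 79 members against summed CPM of olfactory and vomeronasal receptor genes in the 9 HSC libraries of cohort 1, where the 4 libraries above 10000 olfactory CPM have the lowest member sums (1550 to 1766 CPM).

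Cohort 1 asked whether a response in HSCs lasted after NR was withdrawn. At unadjusted p below 0.01, 0 of 79 members differed between O-NR and O-WT (0.048% of all genes tested), 0 between O-NR-RC and O-NR (0.036%) and 0 between O-NR-RC and O-WT (0.078%), by edgeR's test. The counts at unadjusted p below 0.05 were also 0. The members' median log2 fold changes were -0.13, -0.08 and -0.19. Leaving out 1 library moved these from -0.37 (without O-NR replicate 4) to 0.02 (without O-NR replicate 1), from -0.70 to 0.16 and from -0.82 to 0.06, the last 2 ranges set by O-NR-RC replicates 1 and 2. With the replicate number as a block the medians were -0.43, 0.09 and -0.34. Each of the 3 medians turned direction in at least 1 of these settings. The summed level was 3127 and 2823 CPM in O-WT, 1766, 1758, 3357 and 3957 CPM in O-NR and 4529, 1550 and 1692 CPM in O-NR-RC libraries. Low and high libraries stood within the same group, and the 4 low ones were those with 14280 to 15260 olfactory CPM. Without those 4 libraries, which left a single O-NR-RC library taken to vary like the others, 4, 3 and 29 members passed at unadjusted p below 0.01, against 2.03%, 3.92% and 11% of all 28275 genes tested, and the medians were 0.24, 0.17 and 0.42. The smallest p values with all libraries were those of *Cox7b2* (0.82 ± 0.42) for O-NR against O-WT, *Ndufa3* (-0.34 ± 0.32) for O-NR-RC against O-NR and *Ndufb6* (-0.43 ± 0.31) for O-NR-RC against O-WT.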

How the data were processed

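Bulk RNA-seq was measured in 33 libraries, 24 of cohort 2 and 9 of cohort 1. The authors deposited raw counts per gene symbol for each library, made with featureCounts from trimmed reads that STAR had placed on mm10 (Gencode M22). The handling of strand and of reads with several matches was not given in the sources used here, so reads of overlapping genes, such as *Ndufb2*, *Ndufb8* and *Ndufb9* with their same-strand neighbours, may be shared. Libraries were built with a SMARTer total RNA kit. Positions, exon lengths and biotypes came from Gencode M21, which held 54511 of 55376 symbols. The exon length of a gene joins all its annotated exons, so per-kilobase levels and isoform shares depend on the annotation.

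Counts were tested with edgeR 4.0.16 in R 4.3.3 (TMM factors, quasi-likelihood test) on genes above 3 CPM in at least 4 libraries of cohort 2, or 2 of cohort 1. Cell types were compared in a single fit of 24 libraries, averaging O-WT and O-NR, at adjusted p below 0.05. NR was tested within each cell type and withdrawal within cohort 1, at unadjusted p below 0.01, a threshold the study also used. The study's methods also list an adjusted threshold of 0.05 and a fold change above 1.5. No fold limit was applied to the NR and withdrawal tests. Isoform shares were compared by exact two-sided permutation tests, over libraries unless given as within pairs. The scripts were tested on simulated data. DESeq2 1.42.0, other scalings and filters, and leaving out each library were tried as alternatives. Figures were drawn with matplotlib 3.10.9.

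The members and gene lists were chosen with earlier results of these data known. Genes described in full were the isoform families, the called member with the smallest p per complex and direction, up to 3 members with the smallest p per NR comparison, and those next to the CPM limit. The labels do not say that libraries of a group came from separate mice, so p-values measure the spread between libraries. Libraries of the 3 cell types with the same number and treatment carry the same identifier in the deposited data and were taken as 1 mouse each, which the labels do not state. Their deviations from the group means had a mean correlation of 0.09 between HSCs and CLPs, -0.14 between HSCs and GMPs and -0.03 between CLPs and GMPs.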

Additional observations from a re-analysis of the deposited data

Results flagged for a closer look

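*Uqcrq*, the small subunit of complex III, stood apart in a single CLP library of the O-WT group. Replicate 3 held 17.8 CPM and the other 3 libraries held 34.3 to 35.9 CPM. It was the 1 such case among 126 group tests over 18 values, and chance alone flags about 1 in 20 groups. The same library had the fewest reads and the most reads on olfactory receptor genes of cohort 2.

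The response of *Ndufb6* to NR differed between CLPs and HSCs by 0.967 on the log2 scale in the test of that difference, at unadjusted p below 0.01 but not after adjustment.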

How the results depend on the processing

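The members lower in GMPs than HSCs went from 1 to 0 with DESeq2 size factors, without the CPM filter, with DESeq2's test, in O-WT libraries alone and above 1.5-fold. Those higher in CLPs than HSCs, 20 in the report, numbered 47 with upper quartile factors, 8 without the filter, 3 with a limit of 1 CPM (median -0.06), 39 with library totals, 44 with TMM over coding genes, 4 in O-WT libraries alone and 4 above 1.5-fold. Those lower, 8 in the report, numbered 4 with upper quartile factors, 5 in O-WT and 2 in O-NR libraries alone, and 2 above 1.5-fold. Members lower in GMPs than CLPs numbered 4 with TMM over coding genes and 1 in O-NR libraries alone. NR in CLPs had 2 members below 0.01 in a single fit of 24 libraries. The library totals, the coding-gene scaling and the removal of 4 cohort 1 libraries were chosen after seeing the data. That removal gave 4, 3 and 29 members below 0.01 and turned *Ndufs6* after NR to 0.085, and *Cox7b2* and *Cox4i1* after withdrawal against O-WT to -0.25 and 0.19. The causes were not tested.

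Leaving out each library in turn gave 11 to 29 members higher and 6 to 14 lower in CLPs than HSCs, 71 to 76 and 1 to 1 in GMPs than HSCs, and 74 to 77 and 1 to 2 in GMPs than CLPs. The lowest count of 11 higher came without O-WT or O-NR replicate 2 of the HSCs or O-WT replicate 4 of the CLPs. NR gave 0 to 1 in cohort 2 HSCs, 0 to 2 in CLPs, 0 to 1 in GMPs and 0 to 0 in cohort 1. Withdrawal gave 0 to 3 against O-NR and 0 to 4 against O-WT. Differences in the NR response gave 0 to 1 for CLPs minus HSCs, 0 to 0 for GMPs minus HSCs and 0 to 1 for GMPs minus CLPs.

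With the shared identifier, taken as the mouse, as a replicate block, 20 members were higher and 8 lower in CLPs than HSCs, 74 and 1 in GMPs than HSCs, and 74 and 2 in GMPs than CLPs. For NR the libraries share only a number. A replicate block gave 2 members in CLPs and 0 in the other NR and withdrawal comparisons, and same-numbered libraries had mean correlations of 0.14 in HSCs, 0.02 in CLPs and 0.04 in GMPs. Depth limits the rare isoforms most, with *Cox6a2* below 1 CPM in HSCs and GMPs.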
